A study of Mus musculus with 8 samples.

Results

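The core circadian clock genes were followed in 8 samples of soleus, a slow postural muscle of the lower leg, from mice. The 10 genes were named by symbol: Arntl, Clock, Npas2, Per1, Per2, Per3, Cry1, Cry2, Nr1d1 and Nr1d2. The array carried 24 features (short probes of fixed sequence) that its design assigns to them, and 9 of the 10 genes entered the comparison, of 22221 genes in all. None of the 9 passed the adjusted threshold between mice given bacteria and mice given saline. Their largest differences were in Nr1d2, higher, and Per3, lower, in the mice given bacteria, and both depended on which feature of the gene was read.

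All mice were male C57BL/6J, were fed a high-fat diet, and were 14 weeks old at sampling. After random division, one group of mice received the oral bacterium Porphyromonas gingivalis in saline through a feeding needle and the other received saline alone, over 6 weeks, and each group gave 4 samples. P. gingivalis is a bacterium of the gum pocket that is associated with periodontitis. The bacterial strain, the dose and the clock time at which muscle was taken are not given in the sources used here. The labels give 1 sample for each number within a group, but nothing states that each came from a separate mouse, so every p-value rests on the spread among these samples alone, which may be technical.

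Groups follow the sample labels. The deposited table of processed values carries the groups the other way round: with the arrays processed as the table appears to have been, each of its 8 columns equals, within 0.001 on the log2 scale, the array of the same number in the opposite group for 99.7% to 99.8% of 21838 rows, and the array of its own name for 0.398% to 0.637%. Every direction below would turn if the table's names rather than the sample labels were right.

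The molecular clock of a cell is a transcriptional feedback loop. CLOCK, or its paralogue NPAS2, pairs with BMAL1, the product of Arntl, and switches on genes that carry E-boxes, among them the Period genes, the Cryptochromes and Nr1d1 and Nr1d2. The PER and CRY proteins return to the nucleus and inhibit CLOCK and BMAL1, while REV-ERB alpha and beta, the products of Nr1d1 and Nr1d2, repress Arntl through ROR elements. Skeletal muscle has such a clock of its own, set by light through the brain and by feeding, activity, glucocorticoids and temperature, and it times genes of fuel use and of fibre maintenance. A sample taken at one moment shows one phase of this loop in each mouse, and the activators and the repressors then stand at different points of their daily course.

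The regulatory letters behind this loop are shown for 5 of the members in which a match was found, chosen to give each kind of match at least once. RefSeq promoters of build GRCm38.p6, running from 250 bases before to 50 bases after a start site, were matched for 9 of the 10 members through 13 start sites; Per2 had none. They were searched on both strands for the E-box CACGTG, the E-box variant CACGTT, the D-box TTATGTAA or TTACGTAA, the ROR element half-site TAGGTCA or TGGGTCA, and the cAMP response element TGACGTCA. The capitals mark the matches, the sequences run 5′ to 3′ on the gene's strand, and the first 4 show the 250 bases before the start site while Arntl is shown for 30 bases that lie after it.
Per1 (chr11:69098699-69098948, plus strand): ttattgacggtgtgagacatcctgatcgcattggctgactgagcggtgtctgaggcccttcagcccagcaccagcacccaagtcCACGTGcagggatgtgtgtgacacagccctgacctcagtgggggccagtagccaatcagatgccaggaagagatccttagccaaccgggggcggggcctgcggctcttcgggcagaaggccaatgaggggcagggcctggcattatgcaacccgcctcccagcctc
Per3 (chr4:151044666-151044915, minus strand): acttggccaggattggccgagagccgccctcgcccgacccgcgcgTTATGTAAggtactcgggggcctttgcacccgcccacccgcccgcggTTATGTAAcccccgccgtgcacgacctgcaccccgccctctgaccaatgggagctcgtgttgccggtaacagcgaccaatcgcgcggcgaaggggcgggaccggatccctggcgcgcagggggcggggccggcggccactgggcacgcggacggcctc
Cry1 (chr10:85185055-85185304, minus strand): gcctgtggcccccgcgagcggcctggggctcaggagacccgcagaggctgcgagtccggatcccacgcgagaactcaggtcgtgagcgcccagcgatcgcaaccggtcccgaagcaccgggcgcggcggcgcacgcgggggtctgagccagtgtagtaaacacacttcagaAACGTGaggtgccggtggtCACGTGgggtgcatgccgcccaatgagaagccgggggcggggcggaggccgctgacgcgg
Nr1d1 (chr11:98775378-98775627, minus strand): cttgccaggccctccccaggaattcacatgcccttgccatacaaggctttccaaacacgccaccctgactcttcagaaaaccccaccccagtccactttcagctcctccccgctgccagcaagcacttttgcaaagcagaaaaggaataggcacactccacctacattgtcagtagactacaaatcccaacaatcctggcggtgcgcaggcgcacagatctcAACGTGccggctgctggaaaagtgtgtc
Arntl (chr7:113207530-113207559, plus strand): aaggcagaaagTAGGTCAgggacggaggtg

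The E-box lay in 2 members, Per1, where it began 166 bases before the start site, and Cry1, where it began 60 bases before it. The same search found an E-box in 7.15% of all 32851 RefSeq promoters of this length. The E-box variant lay in 3 members (Cry1, Nr1d1 and Cry2, whose promoter is not printed), against 4.68% of all promoters. Per3 held both D-box matches, beginning 205 and 158 bases before its start site; 1.06% of all promoters hold at least 1. The ROR half-site of Arntl began at base 31 after the start site of its transcript, and such a half-site lies in 6.45% of all promoters. No match of the cAMP response element was found in the 13 windows, against 1.79% of all promoters, and none of the 8 matches overlapped another. These are matches of letters in a short window, not measured binding.

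Levels are given as the log2 of the array's background-subtracted signal minus that array's 75th percentile, so that 0 stands for the array's own 75th percentile. Features differ in how well they bind, so no level is set against that of another feature. A gene was read through its brightest feature that was well above background on at least 4 arrays. Differences are given as P. gingivalis minus saline on the log2 scale with the standard error (SE) of limma, a linear model with a shared estimate of spread, and p-values were adjusted by the Benjamini-Hochberg method over all genes.

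The 75th percentile of signal was between 648 and 764 on the 8 arrays, and between 30177 and 35365 features were well above background, with all 4 P. gingivalis arrays (at least 34853) above all 4 saline arrays (at most 34076). The median net signal in the headers went the other way, at 91.0 to 100.1 in saline and 79.5 to 88.3 in P. gingivalis arrays. The extraction status in the headers was 1 for P. gingivalis array 2 and 0 for every other array, and its meaning was not looked into. All arrays lay on 1 slide and were scanned together. The index that follows the slide number in the header barcode was 2 for every saline array and 1 for every P. gingivalis array. What this index stands for is not given in the headers, and it and group cannot be told apart. All 9 slow-fibre markers were measured, as were markers of fast fibres and of other cell types of muscle, so this does not set soleus apart. The summed level of the slow-fibre markers was 11.76 to 11.83 in the saline arrays and 11.91 to 12.04 in the P. gingivalis arrays, while that of 8 endothelial markers was 5.74 to 5.83 and 5.39 to 5.60, neither overlapping. The endothelial sum was mostly set by Egfl7 and Kdr: 5 of the 8 markers were lower and 3 higher, with a median difference of -0.089. The summed level of 10 fast-fibre markers overlapped, at 11.24 to 11.49 and 11.36 to 11.74. Within this sum Myh4 read 1.95 in saline array 1 and 4.03 in P. gingivalis array 3, against 4.98 to 7.70 in the others. Actn3, Pvalb and Mybpc2 were also lowest in those 2 arrays, which 1 alternative setting below leaves out together. In the remaining fast-fibre markers these were not the 2 lowest arrays. The summed level of 4 satellite-cell markers did not overlap, at 0.70 to 0.94 and 0.49 to 0.57. Of these 4 markers, 3 were lower and 1 higher (Calcr, 0.068), with a median difference of -0.23. Chrdl2 alone (-0.41) had groups that did not overlap. All 6 measured neutrophil markers were lower in P. gingivalis, 4 with an unadjusted p under 0.05, with a median difference of -0.84 and overlap between groups in each. All 7 red blood cell markers were higher, 0 with an unadjusted p under 0.05, with a median difference of 0.57 and overlap between groups in each. In such whole-muscle samples fewer cells of a type and less RNA per cell cannot be told apart, and the part of these markers in the differences below was not tested.

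Of all 22221 genes, 26, or 0.117%, passed the adjusted threshold of 0.05 (8 higher and 18 lower in P. gingivalis), and 0 of the 9 measured clock genes did; the smallest adjusted p among them was 0.150 by limma. An unadjusted p under 0.05 was reached by 2 of the 9, against 19.7% of all genes. The groups did not overlap for the same 2 genes, 1 in each direction, against 13.4% of all genes. The median difference of the 9 genes was -0.033 and that of all genes -0.011, and the median absolute difference was 0.12 in the clock genes and 0.13 in all genes. By these counts the share of clock genes that stood apart between the groups was near that of all genes.

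**Figure D1:**
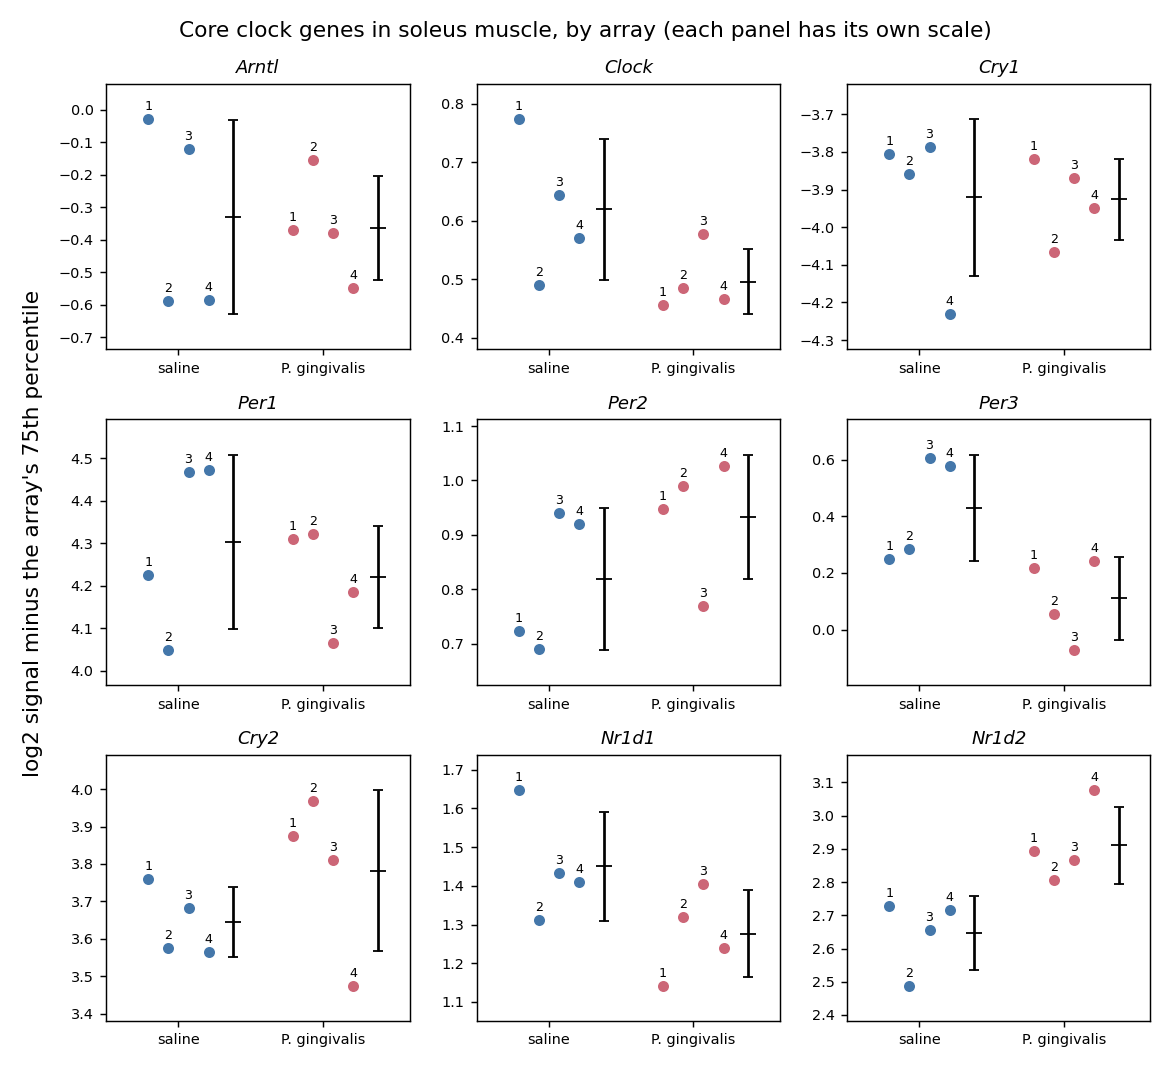
Level of each measured core clock gene (y axis, log2 signal minus the 75th percentile of the array, a scale of its own in each panel) in the saline arrays (blue) and the P. gingivalis arrays (red), numbered by replicate; the black bar is the mean ± SD, n = 4. The groups are apart in Per3, from 0.25 to 0.61 against -0.072 to 0.24, and in Nr1d2, from 2.49 to 2.73 against 2.81 to 3.08, and overlap in the other 7 genes.

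The activators came first. Arntl encodes BMAL1, the subunit without which the loop stops. It read -0.027, -0.59, -0.12 and -0.59 in saline arrays 1 to 4, and -0.37, -0.15, -0.38 and -0.55 in P. gingivalis arrays 1 to 4. The saline arrays thus spanned the whole range, 1 and 3 at the top and 2 and 4 at the bottom, with the P. gingivalis arrays inside it. The difference was -0.033 ± 0.15 (SE, n = 4 against 4; limma, adjusted p = 0.922), and its 95% confidence interval ran from -0.39 to 0.32.

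Clock encodes the partner of BMAL1. Its brightest feature read 0.77, 0.49, 0.64 and 0.57 in saline and 0.46, 0.48, 0.58 and 0.47 in P. gingivalis arrays. Saline array 1 was highest, and 3 of the P. gingivalis arrays lay below every saline array while the third lay among them. The difference was -0.12 ± 0.072 (SE; limma, adjusted p = 0.381).

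Npas2, the paralogue that can stand in for CLOCK, had 1 feature, which none of the 8 arrays read well above background, and so it entered no test. Its measured means were -6.03 in saline and -6.67 in P. gingivalis arrays, and no fold is given.

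Among the repressors, the Period genes encode the proteins that carry CRY back into the nucleus. Per1, which also answers quickly to glucocorticoids and cAMP, read 4.23, 4.05, 4.47 and 4.47 in saline and 4.31, 4.32, 4.07 and 4.18 in P. gingivalis arrays. The saline arrays again held both the highest and the lowest value. The difference was -0.083 ± 0.11 (SE; limma, adjusted p = 0.711).

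Per2, a Period gene whose loss disturbs the daily rhythm of mice, read 0.72, 0.69, 0.94 and 0.92 in saline and 0.95, 0.99, 0.77 and 1.03 in P. gingivalis arrays. All P. gingivalis arrays but the third lay above all saline arrays, and the third array of that group lay among them. The difference was 0.11 ± 0.087 (SE; limma, adjusted p = 0.494).

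Per3, a Period gene that the central rhythm can do without, read 0.25, 0.29, 0.61 and 0.58 in saline and 0.22, 0.054, -0.072 and 0.24 in P. gingivalis arrays. Every P. gingivalis array lay below every saline array, although the nearest pair were apart by little. The difference was -0.32 ± 0.11 (SE; limma, unadjusted p = 0.0224, adjusted p = 0.185), a 1.25-fold higher level in saline, with a 95% confidence interval from -0.58 to -0.059. The exact permutation test over the 70 assignments of arrays gave p = 0.0286, the smallest it can give.

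The Cryptochromes are the stronger inhibitors of CLOCK and BMAL1. Cry1 was dim, at -3.81, -3.86, -3.79 and -4.23 in saline and -3.82, -4.07, -3.87 and -3.95 in P. gingivalis arrays. Saline array 4 stood below the other 7, and the group means differed by less than the spread of either group. The difference was -0.0050 ± 0.11 (SE; limma, adjusted p = 0.985).

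Cry2 read 3.76, 3.57, 3.68 and 3.57 in saline and 3.88, 3.97, 3.81 and 3.48 in P. gingivalis arrays. P. gingivalis arrays 1, 2 and 3 were above all saline arrays and array 4 of that group was the lowest of the 8. The difference was 0.14 ± 0.11 (SE; limma, adjusted p = 0.524).

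The REV-ERB genes close the second loop, the one that sets the rhythm of Arntl. Nr1d1, with a single feature, read 1.65, 1.31, 1.43 and 1.41 in saline and 1.14, 1.32, 1.40 and 1.24 in P. gingivalis arrays. The highest value was in saline array 1 and the 2 lowest were in P. gingivalis arrays 1 and 4, with overlap between. The difference was -0.17 ± 0.090 (SE; limma, adjusted p = 0.325), with an interval from -0.38 to 0.033.

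Nr1d2 read 2.73, 2.49, 2.65 and 2.72 in saline and 2.89, 2.81, 2.87 and 3.08 in P. gingivalis arrays. All P. gingivalis arrays lay above all saline arrays. The difference was 0.26 ± 0.082 (SE; limma, unadjusted p = 0.0125, adjusted p = 0.150), a 1.20-fold higher level in P. gingivalis, with an interval from 0.074 to 0.45. Its exact permutation p was 0.0286, the smallest possible. This feature was the brightest over all 8 arrays but not in saline, where A_55_P2148534 had a mean of 2.77 against 2.65. It was thus chosen through the P. gingivalis arrays, and its separation and p-values are not independent of that choice. A_55_P2148534 gave -0.064 ± 0.070 (SE). At the feature chosen, the REV-ERB paralogues had differences of opposite sign, and only Nr1d2 had groups that did not overlap. At A_55_P2148534, and with the processing of the deposited table, where Nr1d2 turned to -0.038, both paralogues were lower in P. gingivalis. The difference between the paralogues was not tested.

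As a description of the balance between the arms, the mean of Arntl and Clock minus the mean of the Period and REV-ERB genes, each centred over the 8 arrays, was 0.26, -0.0097, 0.045 and -0.22 in saline and -0.055, 0.071, 0.096 and -0.19 in P. gingivalis arrays. Array 4 was the lowest of its group in both groups, and the saline arrays spanned the whole range. The spread of this balance within a group was wider than the gap between groups.

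Most genes were measured at several places along the transcript, and the features of a gene did not tell the same story. Of the 24 features, 22 were kept, and 8 of the 9 measured genes had at least 2 kept features. In all 8 of them the kept features differed in the sign of the group difference, in 13 of the 18 possible pairs of features. Among all 7438 genes with several kept features, signs differed in 51.9%. Of the 22 kept clock features, 0 passed the adjusted threshold, against 0.169% of 33636 features. An unadjusted p under 0.05 was reached by 5 of 22, against 20.6% of all features, and 4 had groups that did not overlap, against 14.1%.

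**Figure D2:**
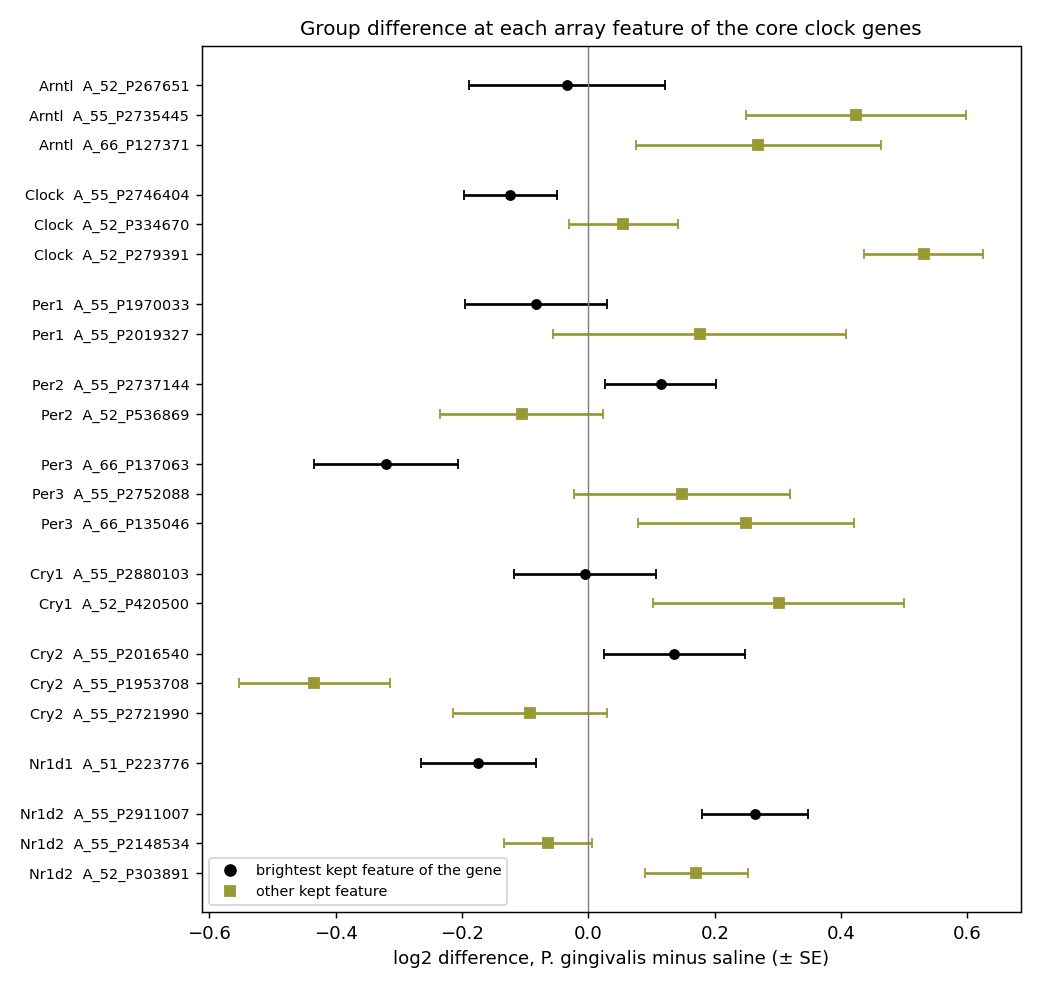
Difference between the groups (x axis, log2, P. gingivalis minus saline, ± SE) at each of the 22 kept features of the core clock genes, with the brightest feature of each gene in black and the others in olive; 4 arrays a group. The features of a gene lie on both sides of 0 in all 8 genes that have several, most widely in Clock, from -0.12 to 0.53.

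Clock had the widest split. A feature designed on the cDNA AK030352 (A_52_P279391; mm9 chr5:76664578-76664637, minus strand, 24586 bases upstream of the gene's most 3′ feature in the genome) read -2.76, -2.94, -2.63 and -2.76 in saline and -2.08, -2.27, -2.42 and -2.20 in P. gingivalis arrays. Every P. gingivalis array was above every saline array, which is the opposite of the brightest feature. The difference was 0.53 ± 0.094 (SE; limma over all features, adjusted p = 0.0606), a 1.44-fold higher level in P. gingivalis, and the exact permutation p was 0.0286. In the authors' deposited table this feature is the 1 clock row of 16 that passed, with a log2 fold change of -0.52 and an adjusted p of 0.0443, the sign being turned as the table's groups are.

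The other kept Clock features lie nearer the 3′ end and match RefSeq transcript NM_007715. The brightest (A_55_P2746404; mm9 chr5:76639992-76640051) gave the -0.12 above, and its neighbour 1385 bases upstream (A_52_P334670; mm9 chr5:76641377-76641436) gave 0.055 ± 0.086 (SE; limma over all features, adjusted p = 0.744). After the group means were removed, these neighbours went together across arrays at r = 0.928, while the AK030352 feature had r = 0.0611 and 0.132 with them (8 arrays, a description). The last Clock feature, which spans 661 bases of genome, was read well above background by none of the arrays. Whether these features lie in an exon, an intron or a UTR on mm9 was not analysed here.

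Cry2 split in the other direction. Its feature from Ensembl transcript ENSMUST00000111278 (A_55_P1953708; mm9 chr2:92251417-92251476, minus strand) read 0.083, -0.24, -0.17 and -0.019 in saline and -0.49, -0.24, -0.64 and -0.70 in P. gingivalis arrays. All P. gingivalis arrays lay below all saline arrays, though P. gingivalis array 2 and saline array 2 were nearly level. The difference was -0.43 ± 0.12 (SE; limma over all features, adjusted p = 0.111; exact permutation p = 0.0286), against 0.14 at the brightest feature and -0.092 ± 0.12 (SE) at the third. These 3 features nonetheless went together within groups, at r = 0.730, 0.755 and 0.773.

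Arntl was near 0 at its 3′ feature (A_52_P267651; mm9 chr7:120456978-120457037, plus strand) and higher in P. gingivalis at the feature 17948 bases upstream (A_55_P2735445; mm9 chr7:120439030-120439089). The upstream feature read -2.88, -3.25, -2.93 and -3.64 in saline and -2.81, -2.58, -2.96 and -2.67 in P. gingivalis arrays. P. gingivalis arrays 1, 2 and 4 were above all saline arrays and array 3 lay among them. Its difference was 0.42 ± 0.17 (SE; limma over all features, unadjusted p = 0.0416, adjusted p = 0.223). The third Arntl feature, which spans 1684 bases of genome, gave 0.27 ± 0.19 (SE).

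For Per3, the lower level in P. gingivalis was read at A_66_P137063 (mm9 chr4:150385608-150385667, minus strand), designed on transcript ENSMUST00000138584. The feature 7135 bases nearer the 3′ end (A_55_P2752088) gave 0.15 ± 0.17 (SE) and the one farthest upstream (A_66_P135046) gave 0.25 ± 0.17 (SE), neither with an unadjusted p under 0.05. So the separation seen at the first feature was not seen at the 2 others.

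Nr1d2 was read at 3 features within 685 bases of one another. The brightest (A_55_P2911007; mm9 chr14:19036859-19036918, minus strand) gave the 0.26 above. The next feature upstream (A_52_P303891) gave 0.17 ± 0.081 (SE; limma over all features, adjusted p = 0.281), with groups that overlapped. The feature at the 3′ end (A_55_P2148534, designed on BC096461), the brightest of the 3 in the saline arrays, gave -0.064 ± 0.070 (SE; adjusted p = 0.632). Both features designed on NM_011584 were thus higher in P. gingivalis by 0.17 to 0.26, while the third was not higher. Within groups these 2 went together at r = 0.548. The third had r = 0.475 with the brightest and 0.00429 with A_52_P303891.

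The second features of the remaining genes were dim. Per1 gave 0.18 ± 0.23 (SE), Per2 gave -0.11 ± 0.13 (SE) and Cry1 gave 0.30 ± 0.20 (SE) at them, each opposite in sign to the brightest feature and each within the spread of the arrays. The Cry1 feature was well above background on 7 of the 8 arrays.

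Across the 8 arrays, 36 pairs of measured clock genes were compared by Pearson's r and Spearman's rho, with exact permutation of the 40320 pairings and Benjamini-Hochberg adjustment over the pairs. The pair of Clock and Nr1d1 alone passed, at r = 0.952 (exact p = 9.92e-05, adjusted p = 0.00357) and rho = 0.952 (adjusted p = 0.0411). The genes were highest together in saline array 1 and lowest together in P. gingivalis array 1. Without saline arrays 1 and 3, the farthest from the median of Clock, r was 0.894; within the saline arrays it was 0.978 and within the P. gingivalis arrays 0.875, with 4 arrays each. With the processing of the deposited table r was 0.747 (exact p = 0.0363) and without saline array 1 alone it was 0.881 (exact p = 0.0117), neither adjusted over the pairs. The relation was seen with the brightest Clock feature only: with the neighbouring feature r was 0.525 (exact p = 0.185) and with the AK030352 feature -0.640 (exact p = 0.0804).

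The Period genes went together after removal of group means. Over the 8 arrays r was then 0.910 for Per2 and Per3, 0.861 for Per1 and Per2, and 0.775 for Per1 and Per3, given as a description with no test. Within the 4 saline arrays alone these values were 0.983, 0.965 and 0.902. Within the 4 P. gingivalis arrays alone they were 0.806, 0.706 and 0.517. In saline, arrays 3 and 4 were higher than arrays 1 and 2 for all 3 Period genes, and in P. gingivalis, array 3 was the lowest for all 3. Over the 8 arrays without that removal, the r of Per2 and Per3 was 0.190 (exact p = 0.642, adjusted p = 0.972). Per3 read lower in P. gingivalis than in saline and Per2 did not. On the activator side Arntl went with Clock at r = 0.739 and with Cry2 at 0.737 within groups, and of the Arntl and Clock pair without saline arrays 1 and 3 the pooled r was -0.178 against 0.635 with them. All these values share the same 8 libraries.

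**Figure D3:**
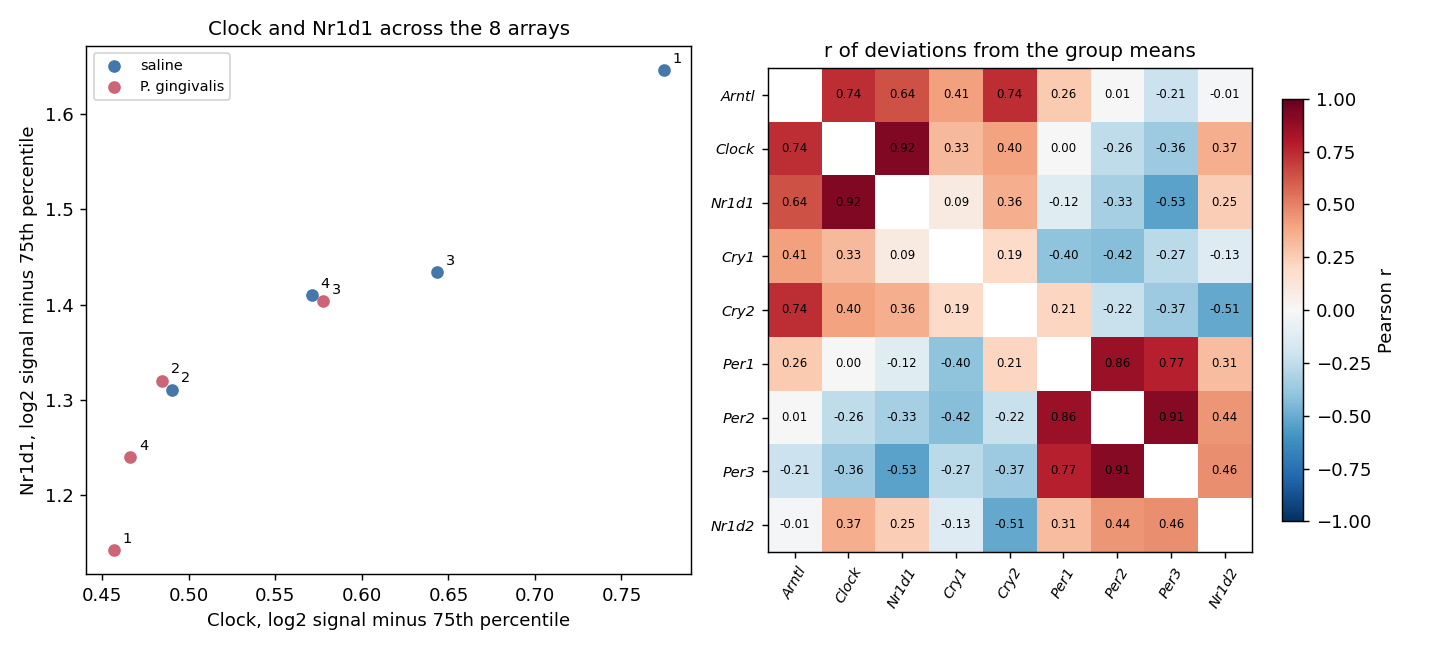
Left, Nr1d1 against Clock on the 8 arrays (log2 signal minus the 75th percentile on both axes), numbered by replicate, saline in blue and P. gingivalis in red. Right, Pearson's r of the deviations from the group means for each pair of genes over 8 arrays; the 3 Period genes form a block from 0.77 to 0.91, and Clock and Nr1d1 stand at 0.92.

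By the rule of likeness over deviations from the group means, among 19410 genes well above background on all arrays, the genes most like Arntl included Alg11 (r = 0.979), Selenov, Pick1 and Prdx6, and the most opposite were Scai (r = -0.989), Prim1, Ppcdc, Prc1 and Arvcf. The named genes most like Nr1d1 were Sim2 (r = 0.984), Cmc4 and AV491486, beside 2 loci that the array names by position only, and the most opposite were Lman2l (r = -0.975), Lancl1, Dop1b and Tigd5, beside 1 such locus. No other core clock gene was among them.

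The loop drives a set of D-box factors: DBP, TEF and HLF activate D-boxes such as those of Per3, and NFIL3, a related factor, represses them. Nfil3 read 2.33, 2.46, 2.95 and 2.33 in saline and 3.51, 3.54, 3.28 and 3.03 in P. gingivalis arrays. Every P. gingivalis array was above every saline array. The difference was 0.83 ± 0.17 (SE; limma, unadjusted p = 0.00131, adjusted p = 0.0781; exact permutation p = 0.0286), a 1.77-fold higher level in P. gingivalis, larger than that of any core member. Nfil3 passed the adjusted threshold in 5 of 21 alternative settings, with a smallest limma adjusted p of 0.0251.

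The 3 activators overlapped between groups. Dbp, whose daily swing is among the widest in muscle, read 4.29, 4.37, 4.20 and 4.77 in saline and 4.41, 4.23, 4.39 and 4.50 in P. gingivalis arrays, a difference of -0.023 ± 0.13 (SE; limma, adjusted p = 0.936). Tef gave -0.027 ± 0.080 (SE; adjusted p = 0.877) and Hlf gave 0.027 ± 0.13 (SE; adjusted p = 0.924). Array 4 was the highest of its group for Dbp, Tef and Hlf in both groups. Within groups Hlf went with Nr1d2 at r = 0.913 and Tef went against Cry2 at r = -0.881, over 8 arrays as a description. These were the highest and the lowest of all values between the D-box factors and the measured core members. Only the brightest feature of each gene was used.

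**Figure D4:**
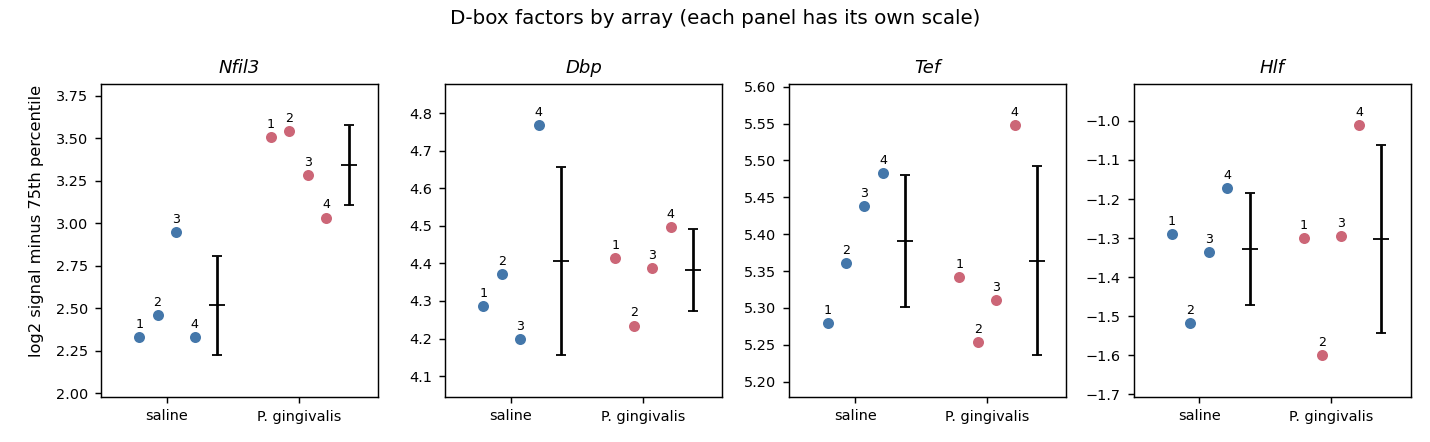
Level of the 4 D-box factors (y axis, log2 signal minus the 75th percentile of the array, a scale of its own in each panel) in the saline (blue) and P. gingivalis (red) arrays, numbered by replicate, with the mean ± SD, n = 4. Nfil3 is at 2.33 to 2.95 in saline and 3.03 to 3.54 in P. gingivalis, while Dbp, Tef and Hlf overlap.

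Of 28 partners and modifiers of the clock, 27 were measured, 0 passed the adjusted threshold and 8 had an unadjusted p under 0.05, against 19.7% of all genes; 10 were higher and 17 lower in P. gingivalis, with a median of -0.022, a split that was 22 and 5 when arrays were centred on the median of all probes. Ep300, a histone acetyltransferase that works with CLOCK and BMAL1, read -0.64, -0.68, -0.50 and -0.64 in saline and -0.076, -0.28, -0.25 and 0.075 in P. gingivalis arrays, a difference of 0.48 ± 0.090 (SE; limma, adjusted p = 0.0668). Hdac3, the deacetylase that REV-ERB recruits, gave 0.25 ± 0.085 (SE; adjusted p = 0.173), and Timeless gave -0.46 ± 0.12 (SE; adjusted p = 0.109). The groups did not overlap in any of these 3 genes, which were named for their small p. Over the 27 genes, groups did not overlap in 4 that were higher and 3 that were lower, against 13.4% of all genes.

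The 22 genes listed as outputs of the muscle clock were all measured; 0 passed and 8 had an unadjusted p under 0.05, against 19.7% of all genes. Of them 18 were higher and 4 lower in P. gingivalis (16 to 20 higher over 5 other scalings), with a median of 0.20 against -0.011 for all genes, of which 10596 of 22221 were higher. That median was 0.13 without saline array 1, 0.11 with quantile normalization, 0.10 with the processing of the deposited table and 0.35 with arrays centred on the median of all probes. Pnpla3, a lipid droplet enzyme, gave 0.63 ± 0.14 (SE; limma, adjusted p = 0.0897), and Wee1, a mitotic kinase driven by E-boxes, gave 0.59 ± 0.14 (SE; adjusted p = 0.0987). Tcap, the titin cap of the sarcomere, gave 0.25 ± 0.067 (SE; adjusted p = 0.115) and Kcnma1, a potassium channel, gave -0.30 ± 0.082 (SE; adjusted p = 0.119). Pnpla3 passed in 3 of 21 alternative settings and Wee1 and Tcap in 2 each. Tcap fell to 0.074 with quantile normalization and to 0.11 with the processing of the deposited table.

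The inputs of the peripheral clock were read through 3 further lists, none of which held a gene past the adjusted threshold in the main setting. Of 21 alternative settings, Cirbp passed in 8, Foxo3 in 5, Tsc22d3 in 2, and Klf15, Angptl4, Rbm3 and Hspa8 in 1 each. All 16 glucocorticoid-induced genes were higher in P. gingivalis, or 13 to 16 of them over 5 other scalings, 5 with an unadjusted p under 0.05, with a median of 0.27; over all genes 10596 of 22221 were higher and 19.7% reached such a p. Tsc22d3, the glucocorticoid-induced leucine zipper, read 4.06, 4.27, 4.55 and 4.46 in saline and 4.97, 4.87, 4.60 and 5.06 in P. gingivalis arrays, without overlap, a difference of 0.54 ± 0.14 (SE; limma, adjusted p = 0.106). Foxo3 gave 0.30 ± 0.056 (SE; adjusted p = 0.0654), Klf15 gave 0.39 ± 0.11 (SE; adjusted p = 0.130) and Angptl4 gave 0.51 ± 0.17 (SE; adjusted p = 0.178). Per1, the core member with the best-known glucocorticoid response, gave -0.083 ± 0.11 (SE) at its brightest feature, with an interval from -0.34 to 0.18. Its other kept feature gave 0.18 ± 0.23 (SE). The sign of Per1 held in 19 of 21 alternative settings. It turned with the mean of probes (0.047) and with median centring over all probes (0.066). The part of glucocorticoids in these differences was not tested.

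Of 10 temperature-responsive genes, 4 had an unadjusted p under 0.05, against 19.7% of all genes; 7 were higher and 3 lower (6 to 9 higher over 5 other scalings), with a median of 0.12. Without P. gingivalis array 2 that median was -0.0021, without saline 1 and P. gingivalis 3 together 0.25, and with arrays centred on the median of all probes 0.27. Cirbp, the cold-inducible RNA-binding protein, read 2.96, 2.81, 3.09 and 2.99 in saline and 3.34, 3.45, 3.32 and 3.38 in P. gingivalis arrays, without overlap, a difference of 0.41 ± 0.071 (SE; limma, adjusted p = 0.0602). Rbm3, also raised by cooling, gave 0.25 ± 0.079 (SE; adjusted p = 0.148), Hspa8 gave 0.20 ± 0.068 (SE; adjusted p = 0.171), and the heat-shock gene Hsp90aa1 gave -0.51 ± 0.15 (SE; adjusted p = 0.131). Of 10 immediate early genes, 8 were lower (6 to 8 over 5 other scalings), with a median of -0.30 and 1 with an unadjusted p under 0.05, against 19.7% of all genes, Fosb, at -0.45 ± 0.15 (SE; adjusted p = 0.169). Egr1 gave -0.71 ± 0.32, Junb -0.29 ± 0.13 and Jun 0.20 ± 0.11 (SE), with overlap between groups in each.

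**Figure D5:**
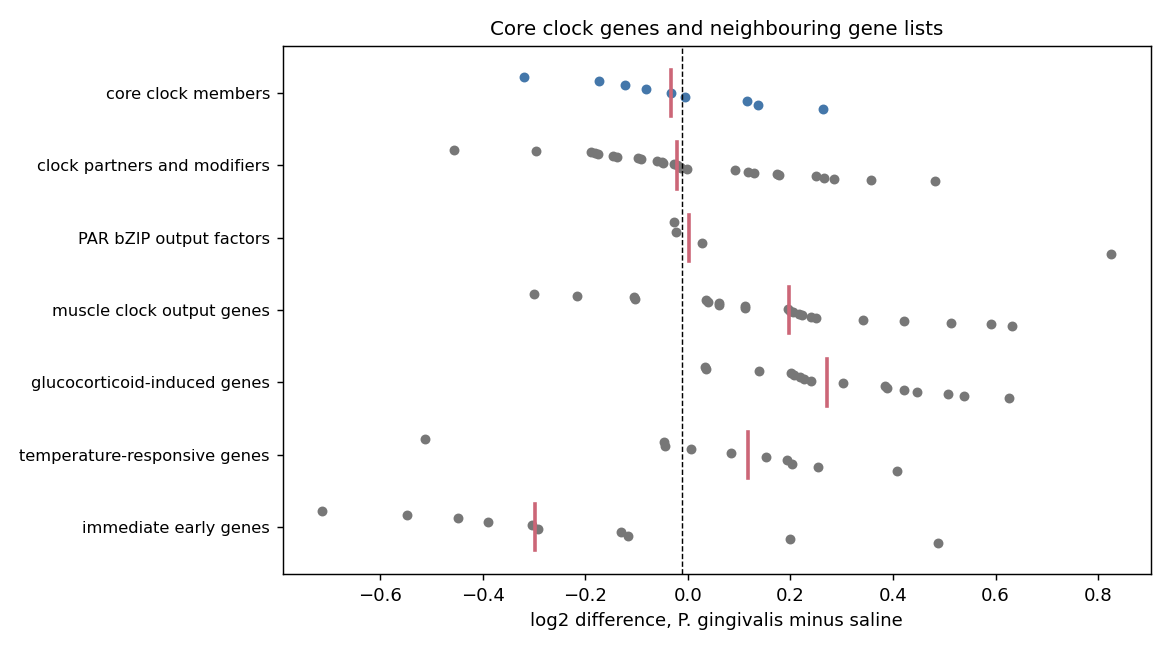
Difference between the groups (x axis, log2, P. gingivalis minus saline) for each measured gene of the core clock (blue) and of 6 further lists (grey), with the median of each list (red bar) and of all 22221 genes (dashed line, -0.011). The core clock genes lie between -0.32 and 0.26 around a median of -0.033, while the 16 glucocorticoid-induced genes all lie above 0 in this scaling (13 to 16 in others) and Nfil3 stands apart from the other D-box factors at 0.83.

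The authors' deposited table holds 16 rows for 9 of the 10 clock genes, of which 6 have an unadjusted p under 0.05, against 22.3% of its 28250 rows, and 1 passes after adjustment, against 1.53%. With its sign turned to the sample labels, it gives Per3 lower at A_66_P137063 but higher at A_66_P135046 (-0.31 as deposited), Cry2 lower at A_55_P1953708 and Clock higher at A_52_P279391, each with an unadjusted p under 0.05. Its Nr1d1 row, at a log2 fold change of 0.23 with the sign as deposited, does not pass after adjustment. For Nr1d2 the authors' deposited table holds the BC096461 feature, at 0.038, and A_52_P303891, at -0.20, again with signs as deposited.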

How the data were processed

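Total RNA of 8 soleus samples, 200 ng each, was labelled with Cy3 and hybridised to Agilent mouse arrays, 1 sample an array. The deposited spot intensity had its background subtracted by Agilent Feature Extraction, version 11.0.1.1 per the file headers and 11.1 per the submitters' processing notes. The deposited table holds log2 expression, log2 fold changes, p-values and a score (the log odds of change), whose making is not given in the sources used here. What is called the processing of the deposited table was inferred here by matching its values: normexp on median signals with an offset of 16, then quantile normalization over all spots and log2.

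Here the processed intensity was taken to log2 and each array's 75th percentile over non-control spots was subtracted. Flagged spots were left out, spots of a probe were averaged, and 33636 of 56605 probes, well above background on at least 4 arrays, were kept. Members were found by the gene name in the scanner files; other genes were named through RefSeq (GRCm38.p6). Probe positions are on mm9, per the file headers. The comparison used limma (version 3.58.1, R 4.3.3; two-sided, Benjamini-Hochberg), tested on simulated data first; precision is limited by 4 arrays a group.

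The members and lists were chosen with earlier results of these data known. Named genes are every member with all its probes, from each other list the genes past the threshold or else the 4 with the smallest p, and the 5 most and 5 least like Arntl and Nr1d1; some genes that this rule names are not reported here. Nothing states that replicate numbers pair the samples. Same-numbered arrays correlated at 0.0639, -0.0577, -0.0406 and 0.231 in their deviations from group means, which with 4 arrays a group cannot settle it. Settings varied were background correction, normalization, the filter, the probe rule, the variance model, a replicate block and the arrays left out.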

Additional observations from a re-analysis of the deposited data

Results flagged for a closer look

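Of 44 sets of 4 arrays (each kept clock feature in each group), 2 held an array far from the other 3, where chance gives about 1 in 20. The second Per1 feature (A_55_P2019327) read -4.42 in P. gingivalis array 3, against -3.74 to -3.61 in the others of that group. The brightest Cry1 feature (A_55_P2880103) read -4.23 in saline array 4, against -3.86 to -3.79 in the others.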

How the results depend on the processing

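Over the 22221 genes, the 26 calls (8 higher, 18 lower) became 453 with normexp background correction (271 higher, 182 lower), 221 with quantile normalization (159 and 62), 91 with median centring (57 and 34), 352 with the processing of the deposited table (239 and 113), 261 with a filter that asked for all 8 arrays, 5154 with no filter, 9 with the mean of a gene's probes, 57 with every probe as a feature, 567 with a trended and robust variance and 199 with array weights. Median centring over all probes, dim ones included, was added after seeing the data; it moved the median of all genes by 0.15 and gave 2385 calls (2290 and 95). Leaving out any one array left 2 to 6 calls, and leaving out saline array 1 and P. gingivalis array 3 together left 0. With the replicate number as a block the count was 0, and the clock genes kept their counts of 0 past the threshold and 2 under an unadjusted p of 0.05.

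No clock gene passed the adjusted threshold, except 1 with median centring over all probes (Nr1d2, 0.41, limma adjusted p = 0.0320, of a range from 0.0320 to 0.784 over its alternatives). The count with an unadjusted p under 0.05 was 0 with the mean of probes, against 18.5% of all genes. With every probe as a feature it was 5, against 20.6% of all probes. There each gene counted through its probe with the smallest p, so this count is not like that of the main setting. With any one array left out it was 1 to 3. Per3 was lost without saline array 3 or 4 or without P. gingivalis array 2 or 3, where 15.9% to 20.8% of all genes reached such a p. The count of genes whose groups do not overlap was 1 with normexp, quantile normalization, either median centring, the processing of the deposited table or the mean of probes. The share of all genes in those settings ran from 12.4% (mean of probes) to 23.1% (median centring over all probes). With every probe the count was 4, where any probe of a gene sufficed, against 14.1% of all probes. Without saline 1 and P. gingivalis 3 together it was 4, against 21.9% of all genes. It was 2 to 4 with any one array left out. The 4 came without P. gingivalis array 3, against 17.2% of all genes. The share of all genes thus also rose in these 2 settings with fewer arrays.

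The sign of Per2 and of Nr1d1 held in every alternative run. Nr1d2 turned to -0.038 with the processing of the deposited table, where another of its probes is the brightest. With the mean of probes, which weighs the dim ones equally, the sign turned for Per3 (0.026), Clock (0.15), Cry2 (-0.13), Arntl (0.22), Per1 (0.047), Cry1 (0.15), Tef (0.047) and Rbm3 (-0.019). Median centring over all probes turned Clock (0.025), Per1 (0.066), Arntl (0.12), Cry1 (0.14), Tef (0.12) and Dbp (0.13). Arntl also turned with normexp (0.032), the processing of the deposited table (0.030), array weights (0.015) and without saline 1 and P. gingivalis 3 (0.073). Cry1 also turned with quantile normalization (0.15), median centring (0.018), the processing of the deposited table (0.072), array weights (0.015) and without saline 1 and P. gingivalis 3 (0.015). Hlf turned with normexp (-0.021) and array weights (-0.030). With 1 array left out, Arntl ranged from -0.12 to 0.068, Cry1 from -0.11 to 0.042, Tef from -0.088 to 0.0095, Hlf from -0.070 to 0.13 and Dbp from -0.092 to 0.098. The cause of these turns, where not given, was not tested.

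The AK030352 feature of Clock stayed higher in P. gingivalis in each of 19 alternatives, from 0.35 to 0.68, with limma adjusted p-values from 0.0194 to 0.240, and passed the threshold in 7. The r of Clock and Nr1d1 lay between 0.881 and 0.978 with any one array left out, was 0.747 with the processing of the deposited table (exact p = 0.0363, not adjusted over the pairs), and fell to 0.525 and -0.640 with the other Clock features (setting added after seeing the data).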
